A study of Mus musculus with 20 samples.

Results

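The Hox cluster genes were followed in the uterus of ovariectomized mice given an estrogen. The array's gene names held 38 genes named Hoxa, Hoxb, Hoxc or Hoxd with a number, out of 27962 distinct gene names, and each was described by the entry with the highest mean log2 signal over the 20 arrays. They comprised 11 genes of the Hoxa cluster, 10 of Hoxb, 8 of Hoxc and 9 of Hoxd. Hoxc11 is not analysed here. The animals were C57bl6/J females at least 10 weeks old, all ovariectomized and rested for 10 to 14 days, so every group lacked ovarian hormones apart from the injection. Each mouse received 100 µl of sesame oil under the skin, either alone (vehicle, 3 arrays) or with 250 ng of estradiol (E2), 750 µg of bisphenol A (BPA) or 750 µg of HPTE, a bis-hydroxyphenyl trichloroethane that the body forms from the pesticide methoxychlor. Uteri were frozen 2 h after E2, BPA or HPTE (3 arrays each) or 24 h after E2 (2 arrays, replicates 2 and 3), BPA (3 arrays) or HPTE (3 arrays). The vehicle animals were taken at 24 h, so in each comparison of a 2 h group with vehicle the compound and the time since injection cannot be told apart. The E2 dose differed from that of BPA and HPTE, which were given at the same dose.

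Hox genes encode homeodomain transcription factors and lie in order within 4 clusters, in which low numbers are active toward the head of the embryo and high numbers toward the tail. In the female tract the genes at the tail end of the Hoxa cluster pattern the Müllerian duct, Hoxa9 toward the oviduct, Hoxa10 in the uterus, Hoxa11 in the uterus and cervix and Hoxa13 toward the cervix and vagina. Hoxa10 and Hoxa11 stay active in the adult uterine stroma, where they are needed for implantation and decidualization, and are known to respond to ovarian steroids.

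The array positions, given by the submitters on the mm7 mouse build, followed the clusters. The 11 Hoxa entries lay on the minus strand of chromosome 6 over 103.3 kb, the 10 Hoxb entries on the plus strand of chromosome 11 over 172.1 kb, the 8 Hoxc entries on the plus strand of chromosome 15 over 107.8 kb and the 9 Hoxd entries on the plus strand of chromosome 2 over 93.8 kb. Because the homeobox is alike among Hox genes, the 60-base array sequences were compared with each other. Of 703 pairs, 4 shared a run of 12 or more bases, and 2 of these were pairs of tested genes, Hoxa9 with Hoxb3 and Hoxa9 with Hoxd10. Cross-hybridization between them was not tested.

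The 250 bases before the start of the Hoxa genes best known in the uterus are shown because these genes fell with BPA and HPTE at 2 h (RefSeq, build GRCm38.p6). Capitals mark GGTCA, the half-site of the estrogen response element, and GGGCGG, the core that Sp1 binds, each searched on both strands.
Hoxa9, chr6:52227371-52227620, strand minus: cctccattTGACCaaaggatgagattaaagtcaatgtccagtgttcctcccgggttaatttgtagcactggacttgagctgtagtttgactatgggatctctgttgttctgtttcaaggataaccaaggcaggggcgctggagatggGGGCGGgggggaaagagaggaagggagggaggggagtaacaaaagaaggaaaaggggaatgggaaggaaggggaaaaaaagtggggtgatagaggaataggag
Hoxa10, chr6:52240855-52241104, strand minus: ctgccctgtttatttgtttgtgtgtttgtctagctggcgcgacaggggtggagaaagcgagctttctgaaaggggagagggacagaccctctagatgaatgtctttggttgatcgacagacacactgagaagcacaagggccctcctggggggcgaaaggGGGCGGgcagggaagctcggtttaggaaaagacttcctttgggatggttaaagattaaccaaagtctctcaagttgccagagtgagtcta
Hoxa11, chr6:52245811-52246060, strand minus: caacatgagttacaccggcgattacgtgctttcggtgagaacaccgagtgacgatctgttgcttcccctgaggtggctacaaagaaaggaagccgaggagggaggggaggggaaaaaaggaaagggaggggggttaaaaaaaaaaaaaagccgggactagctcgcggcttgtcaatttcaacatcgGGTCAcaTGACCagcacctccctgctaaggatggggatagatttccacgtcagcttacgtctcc
The Hoxa9 window held 1 GGTCA on its opposite strand and 1 GGGCGG, and the Hoxa10 window held 1 GGGCGG and no GGTCA. RefSeq gave Hoxa10 another start, whose window held neither. The Hoxa11 window held 2 half-sites on opposite strands facing each other with 2 bases between them, an arrangement searched for after this window was read and found in 0.0731% of all windows. Over the 22 Hox genes with a window, 11 held GGTCA and 10 held GGGCGG, beside 35.2% and 32.7% of all 32851 windows. The full estrogen response element, the same pair of half-sites with 3 bases between them, was in no Hox window and in 0.0639% of all, and the AP-1 site TGANTCA was in the Hoxd11 window and in 6.75% of all. These matches describe letters only.

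Levels are log2 intensities minus the 75th percentile of the same array, so 0 is the brightness of a spot brighter than 75% of that array, and a level is compared only with levels of the same gene. A change is the difference of group means on this scale, with its standard error (SE) from a limma fit over all 32456 array entries tested, and a gene was called at a Benjamini-Hochberg adjusted p under 0.05 over those entries. Between 72.7% and 81.3% of entries were well above background on each array, and the number of arrays limits the precision. Sperm-cell markers (8 on the array) summed to 31 to 102 times the 75th percentile on the vehicle arrays, 6.09 to 12.6 with BPA at 2 h and at most 5.74 in the other groups. Pancreas markers (9) summed to 2135 and 119 on E2 2 h replicates 2 and 3, to 3.48 and 8.78 with E2 at 24 h and to at most 0.738 on the other arrays. The part of these transcripts in the Hox results was not tested.

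Of the 38 Hox genes, 27 were well above background on all 20 arrays and 31 were tested because every array of at least 1 group was above background. The tested genes were all 11 of the Hoxa cluster, 8 of Hoxb, 5 of Hoxc and 7 of Hoxd. Hoxb1, Hoxb13 and Hoxc12 were well above background on no array, Hoxc13, Hoxd1 and Hoxd13 on 1 array each and Hoxc8 on 4 arrays, and these 7 were not tested. Among tested genes Hoxa4 was above background on 17 arrays, Hoxc5 on 18 and Hoxd12 on 12. Of the 31, 23 differed between the 7 groups in a moderated F test, beside 81.4% of all entries tested. The 8 that did not pass were Hoxa3, Hoxa13, Hoxb8, Hoxb9, Hoxc4, Hoxc5, Hoxd11 and Hoxd12.

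At 2 h every Hox gene called against vehicle was lower, under each of the 3 compounds. With E2, 11 of 31 were called lower and 0 higher, beside 17.0% and 11.1% of all entries. With BPA, 23 were called lower and 0 higher, beside 30.2% and 19.3%. With HPTE, 21 were called lower and 0 higher, beside 28.2% and 19.9%. The median change of the 31 genes was -0.57 with E2, -0.83 with BPA and -0.83 with HPTE, where the median of all entries was -0.06, -0.10 and -0.09. The E2 count was 6 without vehicle replicate 1, vehicle replicate 2 or E2 replicate 3, and 0 (7 at an unadjusted p under 0.05) without both E2 arrays that held pancreas transcripts, which leaves 1 E2 array. Spike-in scaling gave 5, 11 and 12 lower and 0 higher. For these other fits the share of all entries called is not given here, so their counts are not read as particular to Hox genes. The 3 comparisons share the vehicle arrays. Fewer cells of a type and less RNA per cell cannot be told apart in these whole-uterus samples. Stroma markers (9, all above background on every array) summed to 359 to 381 on the vehicle arrays. At 2 h they summed to 341 to 406 with E2, 269 to 377 with BPA and 275 to 293 with HPTE. Of these 9 markers 2, 5 and 6 were called lower and 0 higher with E2, BPA and HPTE. Their median changes were -0.23, -0.63 and -0.52. The part of the stroma markers in the Hox result was not tested.

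**Figure D1:**
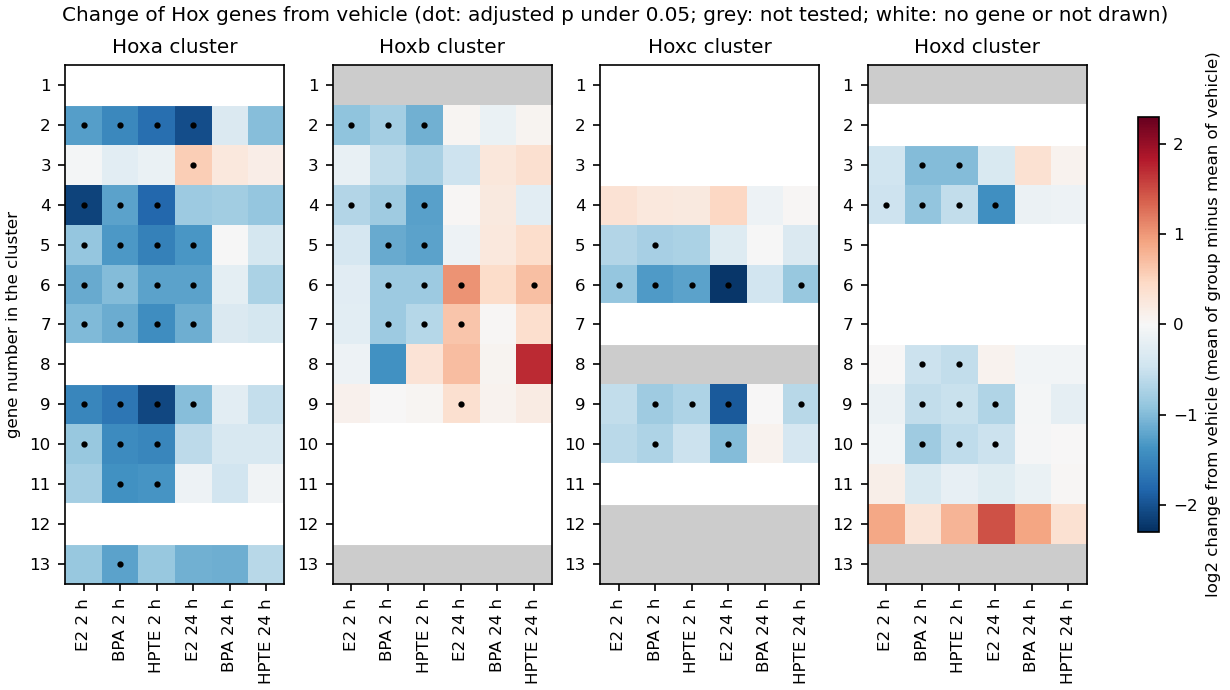
Change of Hox genes from vehicle, one panel per cluster, with the gene number down the side and the 6 treated groups across; colour is the log2 change and a dot marks an adjusted p under 0.05. Blue fills most of the 2 h columns in all clusters, and the BPA 24 h column has no dot. The E2 24 h column is blue in Hoxa except Hoxa3, in Hoxc except Hoxc4 and in parts of Hoxd, and red from Hoxb6 to Hoxb9. Not every gene is drawn.

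Among the Hoxa genes of the uterus, Hoxa9 had the largest fall at 2 h with BPA and HPTE of the 31 genes. Its levels were 1.87, 1.94 and 1.39 on the vehicle arrays, 0.35, 0.26 and 0.06 with E2, -0.57, -0.42 and 1.20 with BPA and -0.20, -0.39 and -0.49 with HPTE at 2 h. No treated array reached the lowest vehicle array, though BPA replicate 3 came close. Hoxa9 fell by 1.51 (SE 0.35, adjusted p = 0.00484) with E2, by 1.66 (SE 0.35, adjusted p = 0.00116) with BPA and by 2.09 (SE 0.35, adjusted p = 0.000164) with HPTE, the last a 4.25-fold decrease.

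Hoxa10, which uterine stroma needs to decidualize, was at 3.24, 3.12 and 3.05 on the vehicle arrays. At 2 h it was at 2.54, 2.07 and 2.18 with E2, at 1.07, 1.28 and 2.74 with BPA and at 1.79, 1.65 and 1.45 with HPTE, so that every array lay below every vehicle array. The fall was 2.72-fold with BPA (change -1.44, SE 0.30, adjusted p = 0.001) and 2.84-fold with HPTE (-1.51, SE 0.30, adjusted p = 0.000671). With E2 the change was -0.87 (SE 0.30, adjusted p = 0.0402), a call that was lost without vehicle replicate 1 (adjusted p = 0.108), vehicle replicate 2 (0.0836), vehicle replicate 3 (0.067), E2 replicate 2 (0.121) or E2 replicate 3 (0.103), and came to between 0.05 and 0.0509 without BPA 24 h replicate 1 or 3, HPTE 2 h replicate 2 or HPTE 24 h replicate 3.

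Hoxa11, its neighbour, was at 4.11, 3.77 and 3.99 with vehicle, 3.5, 3.14 and 2.89 with E2, 2.00, 2.18 and 3.49 with BPA and 2.54, 3.01 and 2.24 with HPTE at 2 h. It fell by 1.40 with BPA (SE 0.31, adjusted p = 0.00173) and by 1.36 with HPTE (SE 0.31, adjusted p = 0.00206), while the E2 change of -0.78 did not pass (adjusted p = 0.0751, but 0.00915 without BPA 2 h replicate 3). Hoxa13 was dim, between -5.46 and -4.83 on the vehicle arrays and between -6.68 and -6.16 with BPA at 2 h, and it fell by 1.24 there (SE 0.44, adjusted p = 0.0307), a call lost without vehicle replicate 1 or 2 or BPA replicate 1 or 3 (adjusted p = 0.0546 to 0.101). Its changes of -0.87 with E2 (adjusted p = 0.167) and -0.87 with HPTE (adjusted p = 0.12) did not pass.

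**Figure D2:**
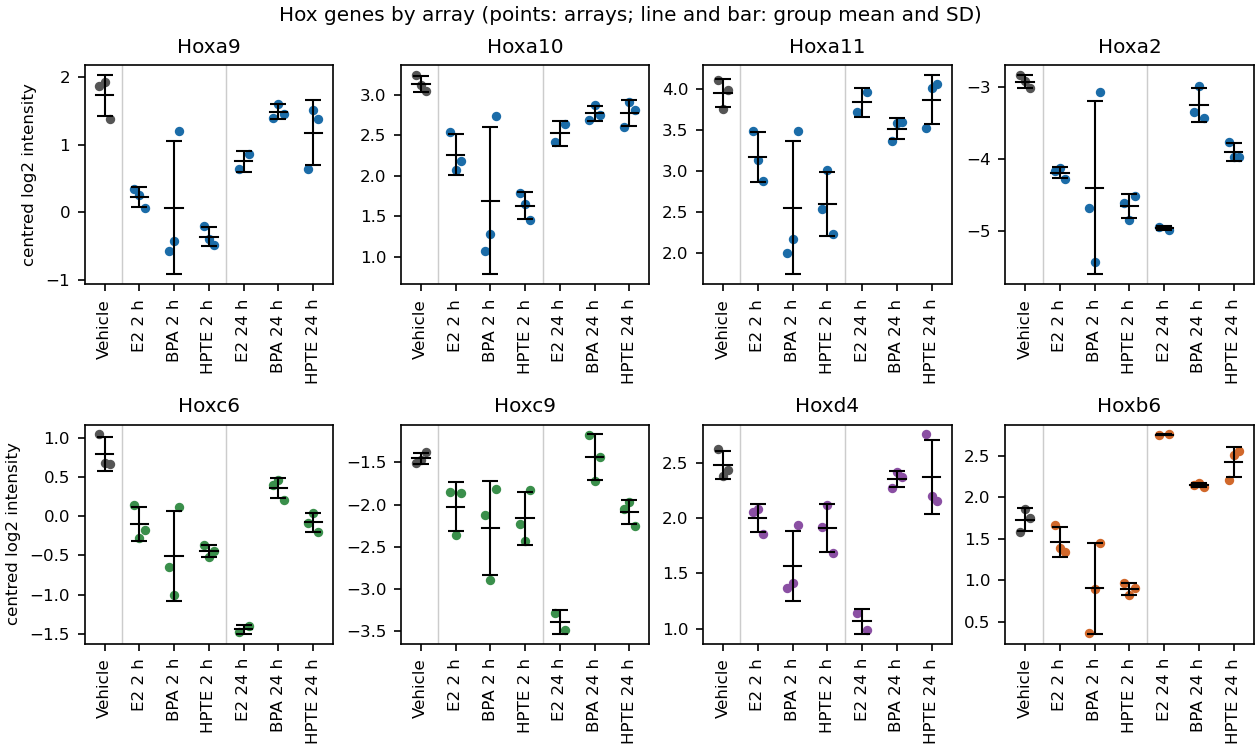
Level of 8 Hox genes on every array, as log2 intensity minus the array's 75th percentile, by group; points are arrays and the lines and bars are the group mean and SD. The E2 24 h arrays are the lowest of all for Hoxc6, Hoxc9 and Hoxd4 and the highest of all for Hoxb6, and 1 BPA 2 h array lies above the other two in the Hoxa panels.

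The Hoxa genes of lower number, which pattern the hindbrain and the trunk in the embryo, moved with them. Hoxa2 fell at 2 h from -2.83, -2.91 and -3.01 to -4.17, -4.12 and -4.27 with E2 (change -1.27, adjusted p = 0.0206), to -4.68, -5.43 and -3.07 with BPA (-1.48, adjusted p = 0.00452) and to -4.61, -4.84 and -4.51 with HPTE (-1.74, adjusted p = 0.00138). Hoxa5 fell by 0.89 with E2, by 1.33 with BPA and by 1.56 with HPTE, Hoxa7 by 1.02, 1.13 and 1.43, and Hoxa6 by 1.16, 0.99 and 1.23. Hoxa4 went with E2 at 2 h from -4.07, -5.04 and -4.85 to -6.24, -6.98 and -7.10 (change -2.12, SE 0.39, adjusted p = 0.000868), with only 1 of the 3 E2 arrays well above background, so that the size of this change rests largely on dim values. The E2 call of Hoxa2 was lost without vehicle replicate 1 or 2 or E2 replicate 3 (adjusted p = 0.0519 to 0.0605), and that of Hoxa5 without any 1 of the 6 vehicle and E2 arrays (0.0704 to 0.0901). Hoxa3 was not called at 2 h, with changes of -0.05, -0.25 and -0.15, but its other tested entry fell with BPA (-2.24, adjusted p = 0.00982, 2 of 3 BPA arrays above background) and HPTE (-2.71, adjusted p = 0.0028).

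In the Hoxb cluster 2 genes fell with E2 at 2 h, and 5 each with BPA and HPTE. Hoxb2 and Hoxb4 fell under all 3 compounds, Hoxb2 by 0.92, 0.78 and 1.11 and Hoxb4 by 0.67, 0.82 and 1.25 with E2, BPA and HPTE. Hoxb5 was at -0.37, -0.27 and -0.27 with vehicle and fell to -1.86, -1.64 and -0.91 with BPA (change -1.17, adjusted p = 5.14e-05) and to -1.41, -1.65 and -1.56 with HPTE (-1.24, adjusted p = 2.52e-05), while with E2 it was at -0.55, -0.73 and -0.81 and was not called (adjusted p = 0.0977). The difference from E2 was itself called for BPA (-0.77, adjusted p = 0.00631) and for HPTE (-0.84, adjusted p = 0.0037), at unlike doses. Hoxb6 and Hoxb7 fell by 0.83 and 0.83 with BPA and by 0.83 and 0.65 with HPTE.

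The 5 Hoxc genes had a median change of -0.63 with E2, -0.77 with BPA and -0.71 with HPTE at 2 h, and the 7 Hoxd genes -0.06, -0.56 and -0.56. Hoxc6, a gene of the thoracic region of the embryo, fell by 0.89 with E2, by 1.31 with BPA and by 1.24 with HPTE, and Hoxc9 by 0.82 with BPA and 0.71 with HPTE. Hoxd4 fell under all 3, by 0.48, 0.91 and 0.57, though its E2 call (adjusted p = 0.0473) was lost without any 1 of the 6 vehicle and E2 2 h arrays and without 8 arrays of other groups (0.0501 to 0.153). The Hoxd4 call with HPTE was lost without HPTE replicate 3 (0.0608), and the Hoxc9 calls without BPA replicate 2 (0.0527) and without vehicle replicate 3 or HPTE replicate 1 or 2 (0.0578 to 0.0916). Hoxd3, Hoxd8, Hoxd9 and Hoxd10 fell with BPA and HPTE and were not called with E2. The other tested Hoxd3 entry was not called with BPA (-0.28, adjusted p = 0.582) or HPTE (-0.39, adjusted p = 0.438). Hoxd10 was at 1.10, 1.21 and 1.16 with vehicle and at 1.23, 0.94 and 1.12 with E2 at 2 h, which overlap, and at 0.22, 0.27 and 0.54 with BPA and 0.78, 0.48 and 0.45 with HPTE, which do not.

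The compounds were compared at the same time. At 2 h BPA against E2 gave 6 calls (19.4% of the tested Hox genes), all lower with BPA (Hoxb5, Hoxb7, Hoxd8, Hoxd9, Hoxd10 and Hoxd11). HPTE against E2 gave 3 (9.68%), all lower with HPTE (Hoxb5, Hoxd8 and Hoxd10). Of all entries 19.0% and 16.6% were called, in either direction. The BPA count was close to that share and the HPTE count below it, so neither is read as particular to Hox genes. With arrays left unscaled or scaled on the spike-in RNA no Hox gene was called lower than with E2 for either compound, and without scaling 1 was called higher with BPA. BPA and HPTE, given at the same dose, differed for 0 Hox genes at 2 h in limma (1 at an unadjusted p under 0.05), beside 0.438% of all entries. Their difference for Hoxa10 was -0.06 (95% confidence interval -0.70 to 0.58) and for Hoxa9 -0.43 (-1.18 to 0.32). These intervals use the spread shared by all groups. The BPA 2 h arrays had an SD of 0.91 for Hoxa10 and 0.99 for Hoxa9, so the intervals may be too narrow.

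BPA 2 h replicate 3 stood apart from the other two. Its median over the 31 Hox genes was -0.37 from the vehicle mean, against -1.22 for each of replicates 1 and 2, and the E2 arrays lay at -0.42, -0.55 and -0.57 and the HPTE arrays at -0.97, -0.91 and -0.99. Over all entries its median size of difference from the vehicle mean was 0.320, against 0.434 and 0.439 on the other BPA arrays. Wnt4, an estrogen-induced ligand, was raised on it but less than on the others (2.62 against 3.35 and 3.49, with vehicle at 0.20 to 0.46). Wnt7a, an epithelial ligand that maintains Hoxa10 and Hoxa11 in the uterus, was at 0.52 against -2.07 and -1.22, with vehicle at 0.35 to 0.80. Without this array BPA was lower than E2 at 2 h for 16 Hox genes and HPTE for 10, and against vehicle 23 genes were called lower with BPA. Leaving it out also changes the spread shared by all groups. The Hoxa10 change between HPTE and E2 stayed at -0.63, while its limma adjusted p went from 0.17 to 0.00381. The share of all entries called in that fit is not given here, so these counts are not read as particular to Hox genes.

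**Figure D3:**
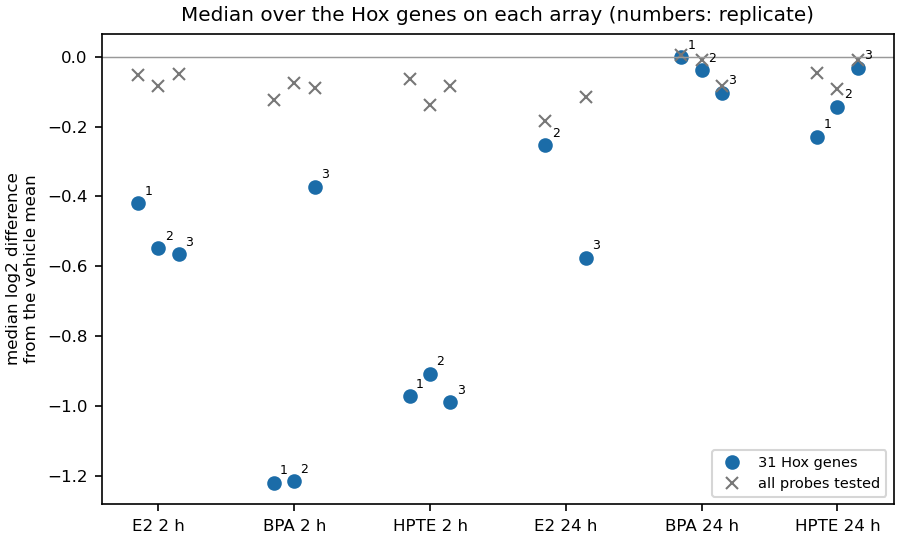
Median log2 difference from the vehicle mean over the 31 Hox genes (circles, with replicate numbers) and over all entries tested (crosses), for each treated array. All 9 arrays at 2 h lie between -1.22 and -0.37, BPA replicate 3 is the highest of them, and the BPA and HPTE arrays at 24 h lie between -0.23 and 0.00.

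At 24 h the medians over all tested Hox genes after BPA and HPTE lay near the vehicle level, with the medians by cluster on both sides of it. The clusters were not tested against each other, and their genes were read on the same arrays. The Hoxa median was -0.33 with BPA and -0.55 with HPTE, and 10 of 11 Hoxa genes lay below vehicle with each. The Hoxb median was 0.15 with BPA and 0.38 with HPTE. With BPA 0 of 31 were called in limma (2 at an unadjusted p under 0.05), beside 13.1% of all entries, and the median change was -0.05. With HPTE 3 were called, Hoxc6 (-0.87, adjusted p = 0.005) and Hoxc9 (-0.64, adjusted p = 0.0492) lower and Hoxb6 (0.70, adjusted p = 0.0118) higher, beside 34.0% of all entries, and the median change was -0.11. For the fits that follow, the share of all entries called is not given here. The HPTE count was 11 without BPA 2 h replicate 3 and 5 without replicate 2, arrays that enter it only through the shared fit. It was 1 without vehicle replicate 1. Its split of 2 lower and 1 higher was 1 and 2 with normexp and quantile normalization, 1 and 1 with quantile normalization, 3 and 0 without scaling and 5 and 0 with spike-in scaling. The Hoxc9 call was lost without any 1 of the 6 vehicle and HPTE 24 h arrays and without 8 arrays of other groups (adjusted p = 0.0509 to 0.138). BPA and HPTE differed for 0 Hox genes at 24 h in limma (4 at an unadjusted p under 0.05, 4 with array weights), beside 4.08% of all entries. Hoxa10 was at 2.69, 2.88 and 2.75 with BPA and 2.60, 2.92 and 2.82 with HPTE, all below the 3 vehicle arrays, and its changes of -0.36 and -0.36 did not pass (adjusted p = 0.463 and 0.385, the latter 0.0453 without BPA 2 h replicate 3).

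Many Hox genes rose between 2 and 24 h of BPA and HPTE in the comparison of the treated groups with each other. Vehicle levels do not enter these differences, though the vehicle arrays enter the spread that all groups share. With BPA 21 of 31 were called higher and 0 lower at 24 h, beside 28.2% and 20.2% of all entries, with a median change of 0.79 (all entries, 0.06). With HPTE 15 were called higher and 0 lower, beside 29.5% and 24.6%, with a median of 0.59 (all entries, 0.05). Hoxb5 rose by 1.42 with BPA (adjusted p = 7.54e-06) and by 1.64 with HPTE (adjusted p = 1.17e-06). Hoxa9 rose by 1.42 and 1.54, Hoxa10 by 1.08 and 1.15, and Hoxa11 by 0.96 and 1.28. With arrays scaled on the spike-in RNA the counts were 5 and 2, and the HPTE median was 0.02 (all entries, -0.52). The share of all entries called with that scaling is not given here. Stroma markers summed to 429 to 545 with BPA and 519 to 560 with HPTE at 24 h, above all the 2 h arrays. From 2 to 24 h, 9 of 9 stroma markers were called higher with BPA and 9 of 9 with HPTE, with median changes of 1.01 and 1.29. Epithelial markers (8) summed to 65.2 to 96.2 at 2 h and 133 to 140 at 24 h with BPA and to 95.9 to 101 and 164 to 179 with HPTE, and smooth muscle markers (7) to 377 to 463 and 485 to 563 with BPA and to 456 to 489 and 588 to 678 with HPTE. All 3 lists were above background on every array, and their part in the rise was not tested.

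With E2 at 24 h Hox genes were called in both directions. Of 31 genes 12 were called lower and 4 higher, beside 37.6% and 26.3% of all entries, so both counts were close to or below what those shares give. The lower genes were 6 of 11 in Hoxa (Hoxa2, Hoxa5, Hoxa6, Hoxa7 and Hoxa9 among them), 3 of 5 in Hoxc (Hoxc6, Hoxc9 and Hoxc10), 3 of 7 in Hoxd (Hoxd4, Hoxd9 and Hoxd10) and 0 of 8 in Hoxb. The higher ones were Hoxb6, Hoxb7 and Hoxb9 in Hoxb and Hoxa3 in Hoxa. The median change was -1.11 in Hoxa, 0.20 in Hoxb, -1.0 in Hoxc and -0.35 in Hoxd, where all entries had -0.15. Quantile normalization gave 10 lower and 6 higher, and spike-in scaling 7 lower and 1 higher, fits for which the share of all entries called is not given here. Between the uteri of these 2 arrays and those of vehicle, epithelial markers (8) summed to 272 and 303 against 96.2 to 112, stroma markers to 501 and 540 against 359 to 381, leukocyte markers (7) to 58.4 and 56.4 against 89.8 to 100, and stratified epithelium markers of cervix and vagina (8) to 10.5 and 62.6 against 2.59 to 4.71. Such sums follow the brightest members. Of the 9 stroma markers 3 were called lower and 4 higher with E2 at 24 h, with a median change of -0.14. The part of these shifts in the Hox changes was not tested.

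Hoxc6 had the largest fall. Its levels were 1.04, 0.67 and 0.67 with vehicle, 0.15, -0.27 and -0.17 with E2 at 2 h and -1.48 and -1.40 with E2 at 24 h, and the 24 h arrays lay below all other arrays of the series. The change from vehicle was -2.24 (SE 0.23, adjusted p = 8.81e-07), a 4.72-fold decrease, and that from 2 h was -1.34 (SE 0.23, adjusted p = 0.000163). Hoxc9 went from -1.51, -1.47 and -1.38 with vehicle to -3.29 and -3.49, a change of -1.93 (SE 0.26, adjusted p = 1.29e-05), and Hoxd4 from 2.62, 2.38 and 2.44 to 1.14 and 0.99, a change of -1.41 (SE 0.19, adjusted p = 1.19e-05). All 3 fell further from 2 h to 24 h, whereas they rose over that time with BPA.

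Along the Hoxa cluster the E2 change at 24 h was -2.04 for Hoxa2 (SE 0.42, adjusted p = 0.000588), -1.34 for Hoxa5, -1.22 for Hoxa6, -1.13 for Hoxa7, -0.97 for Hoxa9 (adjusted p = 0.0408), -0.61 for Hoxa10 (adjusted p = 0.126) and -0.11 for Hoxa11 (adjusted p = 0.802). The sizes became smaller toward the tail end of that stretch, but Hoxa3 (0.57), Hoxa4 (-0.83) and Hoxa13 (-1.11) did not follow the order, and Spearman's rho of change with gene number over the 11 genes was 0.32, a description across genes of the same arrays. The Hoxa9 call was lost without vehicle replicate 1 (adjusted p = 0.0938), vehicle replicate 2 (0.103), E2 replicate 2 (0.17) or E2 replicate 3 (0.0889). Hoxa10 was called without BPA 2 h replicate 3 (0.00216).

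**Figure D4:**
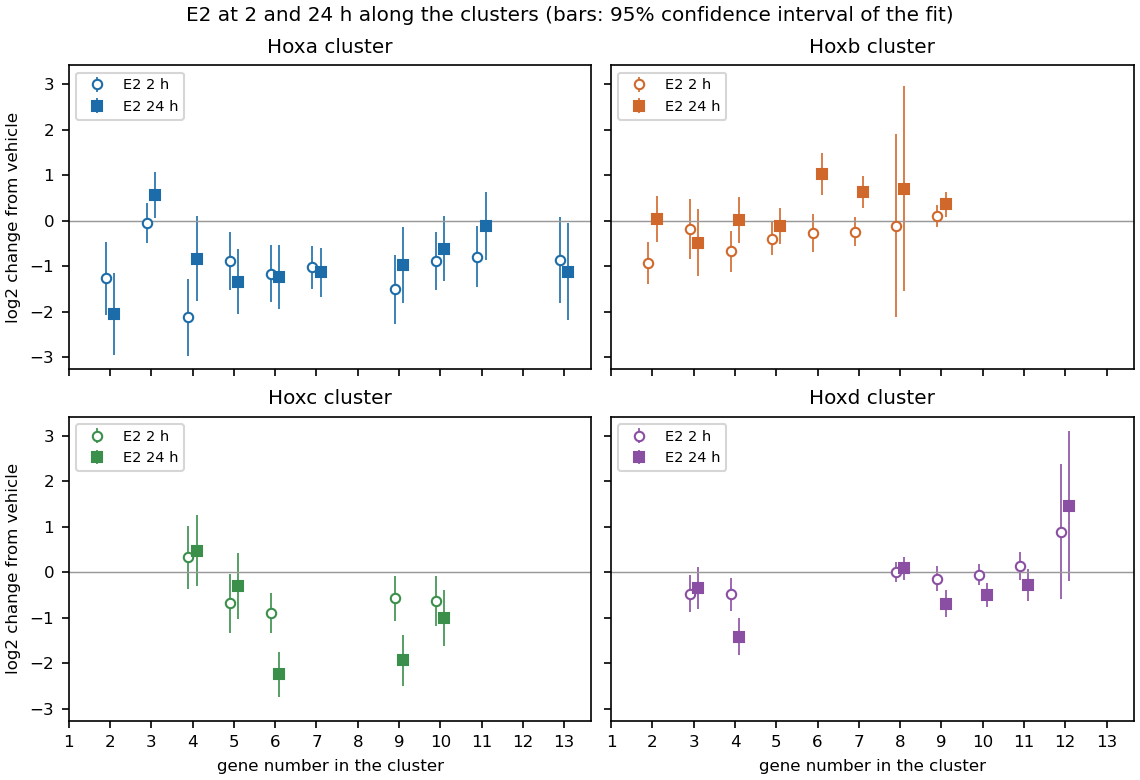
Change from vehicle with E2 at 2 h (open circles) and 24 h (filled squares) against the gene number, one panel per cluster, with 95% confidence intervals of the fit. At 24 h Hoxc6, Hoxc9 and Hoxd4 lie further down than at 2 h, Hoxb6 and Hoxb7 lie above 0, and Hoxa2 to Hoxa11 climb from -2.04 to -0.11 with Hoxa3 and Hoxa4 off that line.

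Hoxb6 and Hoxb7, chosen for description after their values were seen, were the highest of all arrays with E2 at 24 h. Hoxb6 was at 1.58, 1.86 and 1.76 with vehicle, 1.67, 1.38 and 1.34 with E2 at 2 h and 2.76 and 2.76 with E2 at 24 h (change from vehicle 1.03, SE 0.21, adjusted p = 0.000644). Hoxb7 was at 1.93, 1.95 and 1.94 with vehicle and at 2.49 and 2.67 with E2 at 24 h (0.64, SE 0.17, adjusted p = 0.0034). Over 32 other settings the Hoxb6 change stayed between 0.74 and 1.09 and was called in all 32, and the Hoxb7 change stayed between 0.45 and 0.73 and was called in 31. From 2 to 24 h of E2, 6 Hox genes were called higher and 6 lower, beside 25.9% and 30.1% of all entries, so both counts were below what those shares give. The higher ones were Hoxb2, Hoxb4, Hoxb6, Hoxb7, Hoxa3 and Hoxa4, and the lower ones Hoxc6, Hoxc9, Hoxd4, Hoxd9, Hoxd10 and Hoxd11. The split was 8 higher and 3 lower without scaling. Without both E2 2 h arrays that held pancreas transcripts 6 genes were called.

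**Figure D5:**
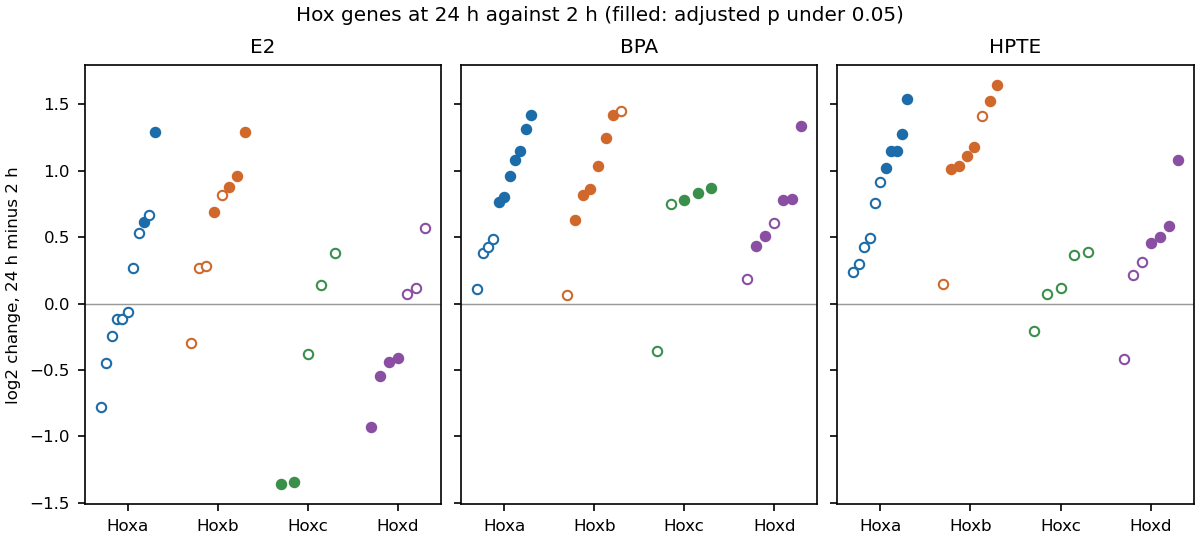
Change from 2 to 24 h of each of the 31 Hox genes for E2, BPA and HPTE, grouped by cluster and sorted within it; filled points have an adjusted p under 0.05. With BPA and HPTE all filled points lie above 0, and with E2 the filled points lie above 0 in Hoxa and Hoxb and below 0 in Hoxc and Hoxd.

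At 24 h BPA against E2 gave 13 calls, beside 57.9% of all entries, with 11 higher with BPA and Hoxb6 and Hoxb7 lower; the split was 9 and 4 with normexp and quantile normalization, 8 and 4 with quantile normalization, 8 and 3 without scaling and 5 and 0 with spike-in scaling. HPTE against E2 gave 9 calls, beside 48.9%, all higher with HPTE (7 and 1 lower with normexp and quantile normalization). Both counts were below what the shares of all entries give. Hoxc9 was higher with BPA by 1.95 (SE 0.26, adjusted p = 1.58e-05) and with HPTE by 1.30 (SE 0.26, adjusted p = 0.000808), and Hoxc6 by 1.80 and 1.36. The doses of E2 and of the other compounds differ, and without E2 24 h replicate 3 the HPTE count was 4.

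Other array entries of the same genes were read where they existed. Of 7 tested genes with a second tested entry, 15 changes from vehicle were called on the first entry, the second had the same sign in 14 and was also called in 9. The exception was Hoxa3 with E2 at 24 h, where the first entry rose by 0.57 and the second changed by -1.80 (adjusted p = 0.0401), so the direction of Hoxa3 is not settled. Changes of the same sign that the second entry did not call were Hoxa13 with BPA at 2 h and Hoxd3 with BPA and HPTE at 2 h. At 24 h they were Hoxb9 with E2 and Hoxb6 with HPTE. In 4 further changes the second entry was called and the first was not, Hoxa3 with BPA and HPTE at 2 h as given above and Hoxb2 with E2 and HPTE at 24 h. The second Hoxb2 entry lay on the minus strand, opposite to the other Hoxb entries, and fell by 2.11 with E2 at 24 h (adjusted p = 1.94e-05) while the Hoxb2 entry on the plus strand changed by 0.04. With HPTE at 24 h the second entry fell by 0.86 (adjusted p = 0.0229) and the first changed by 0.07. The Hoxb2 changes with E2, BPA and HPTE at 2 h are among the 9 also called on a second entry. Whether this minus-strand entry measures the Hoxb2 transcript was not tested. Hoxb8 varied most, at -0.23, -4.36 and -4.29 with HPTE at 24 h and -4.98, -2.27 and -5.88 with HPTE at 2 h. Its second entry was at -8.34, -4.85 and -8.26 with HPTE at 24 h, so the high array was replicate 1 on one entry and replicate 2 on the other.

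Hox proteins bind DNA with cofactors of the TALE class, the Pbx and Meis homeodomain proteins. Of 9 TALE genes tested, 3 fell and 1 rose with E2 at 2 h, 4 fell and 2 rose with BPA and 4 fell and 2 rose with HPTE, and 5 fell and 1 rose with E2 at 24 h. In the same order 17.0%, 30.2%, 28.2% and 37.6% of all entries fell and 11.1%, 19.3%, 19.9% and 26.3% rose, and the counts of the lists that follow stand beside these same shares. Meis2 fell by 0.49, 1.0 and 0.72 at 2 h and by 1.19 with E2 at 24 h, and Pbx4 by 0.79, 1.15, 1.17 and 1.22. Their medians at 2 h were -0.17, -0.06 and -0.12, near those of all entries.

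Retinoic acid is the known inducer of Hox genes in the embryo. Of 15 retinoid and Cdx genes tested, 3 fell and 3 rose with E2 at 2 h, 6 and 3 with BPA, 3 and 5 with HPTE, and 6 and 3 with E2 at 24 h, the last beside 37.6% and 26.3% of all entries. Aldh1a2, which makes retinoic acid, rose by 1.21, 1.71 and 1.80 at 2 h and by 1.71 with E2 at 24 h. With E2 at 24 h Aldh1a3, another enzyme of that step, fell by 5.25, the binding protein gene Crabp1 rose by 4.40 and Cyp26a1, which degrades retinoic acid, fell by 2.43.

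Polycomb and Trithorax proteins keep Hox genes silent or active. Of 21 such genes, 2 fell and 3 rose with E2 at 2 h, 4 and 6 with BPA, 5 and 6 with HPTE and 9 and 6 with E2 at 24 h, beside 17.0% and 11.1%, 30.2% and 19.3%, 28.2% and 19.9%, and 37.6% and 26.3% of all entries. Cbx2 fell by 0.73, 1.57 and 1.57 at 2 h, and with E2 at 24 h Cbx7 fell by 2.76, Kmt2a, which encodes the MLL1 methyltransferase, by 1.26 and Ezh1 by 1.18 while Ezh2 rose by 1.01. Of 11 other homeobox genes of the female tract, 2 fell and 1 rose with E2 at 2 h, 5 fell and 0 rose with BPA and with HPTE at 2 h and 4 fell and 0 rose with E2 at 24 h, beside the shares just given. With BPA and HPTE at 2 h and E2 at 24 h, Msx1 fell by 0.76, 1.01 and 0.77 and Satb1 by 0.68, 0.50 and 1.45.

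Of 6 genes known to act on Hoxa10 and Hoxa11 in the uterus, the progesterone receptor gene Pgr rose by 1.81, 1.60 and 1.40 at 2 h and by 1.0 with E2 at 24 h. Wnt7a fell by 1.51 with BPA and 2.00 with HPTE at 2 h and by 1.35 with E2 at 24 h, and its E2 change at 2 h was 0.43. Wnt4 rose by 2.50, 2.86 and 3.25 at 2 h. Of 6 genes known as Hoxa10 targets, 1 fell and 2 rose with E2 at 2 h, 3 fell and 2 rose with BPA and with HPTE, and 2 fell and 2 rose with E2 at 24 h, where 17.0% and 11.1%, 30.2% and 19.3%, 28.2% and 19.9%, and 37.6% and 26.3% of all entries fell and rose. The integrin gene Itgb3 rose by 1.43, 1.85 and 2.09 at 2 h, the prostaglandin receptor gene Ptger4 fell by 1.13, 1.34 and 2.22, and Emx2, a target that Hoxa10 represses, fell by 0.51 with BPA and 0.52 with HPTE.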

How the data were processed

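RNA from 1 uterus per array (500 ng, Cy3) was hybridized to one-colour Agilent mouse arrays. Per the labels, the deposited intensity values came from Agilent Feature Extraction 9.5, whose processed intensity is background-subtracted, and the deposited value table held the same intensities. Control spots and outlier flags were left out, spots of a probe were averaged, and log2 values were centred on each array's 75th percentile. Probes were kept if any group had all its arrays well above background, and were tested with limma 3.58.1 (R 4.3.3). The fit had 1 mean per group over 7 groups, with Benjamini-Hochberg adjustment over 32456 probes in each of 15 comparisons. The p-values rest on 1 spread between uteri per probe, shared by all groups. The median SD of the tested Hox genes within a group was 0.55 with BPA at 2 h and 0.11 to 0.19 in the other groups. The shared spread therefore does not give that of BPA at 2 h alone. The test was checked on simulated data with 1 spread per probe in all groups, a setting that does not cover this unequal spread. Groups came from sample titles, with which the source names matched in compound and time, while the treated samples' treatment tag held the time and the time tag the compound; the vehicle's 24 h stands in its titles only. The study's methods describe arrays with both dyes, pooled RNA and another vehicle for these compounds, and the labels and files were followed. The Hox genes and the other lists were chosen with earlier results of these data known. Genes given on every array were Hoxa9, Hoxa10, Hoxa11 and Hoxa13 and the called genes with the largest change from vehicle and no overlap with it, to 12 in all. Other Hox genes were named after their values were seen. Alternatives were other background corrections, scalings, filters and probes, slide and replicate terms, array weights, and leaving out each array. Some items, among them 1 of the 12, are not reported here.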

Additional observations from a re-analysis of the deposited data

Results flagged for a closer look

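Among the 12 genes given on every array, 19 changes differed between 2 h and 24 h of the same compound (limma, adjusted over all probes). All but Hoxa9, Hoxa10, Hoxa11 and Hoxa13 were chosen for the size of their change from vehicle in these data. The count is therefore not read as a result about these genes. Of all entries, 28.2% were called higher and 20.2% lower with BPA, 29.5% and 24.6% with HPTE and 25.9% and 30.1% with E2. The same vehicle mean enters both times, so each value is also the level at 24 h minus that at 2 h. After BPA the difference was 1.42 for Hoxa9, 1.08 for Hoxa10, 0.96 for Hoxa11, 1.15 for Hoxa2, 1.32 for Hoxa5 and 0.80 for Hoxa7. It was 0.87 for Hoxc6, 0.84 for Hoxc9 and 0.78 for Hoxd4 with BPA. After HPTE it was 1.54 for Hoxa9, 1.15 for Hoxa10, 1.28 for Hoxa11, 1.15 for Hoxa5, 1.02 for Hoxa7 and 0.46 for Hoxd4. After E2 it was 1.29 for Hoxa4, and it was negative for Hoxc6 (-1.34), Hoxc9 (-1.36) and Hoxd4 (-0.93). The adjusted p-values ran from 0.000163 for Hoxc6 with E2 to 0.0331 for Hoxd4 with HPTE. Calls were lost when 1 array was left out for Hoxa11 with BPA (BPA 2 h replicate 1 or 2 or BPA 24 h replicate 2 or 3, adjusted p = 0.0501 to 0.102), Hoxa2 with BPA (BPA 2 h replicate 1 or 2 or BPA 24 h replicate 2, 0.071 to 0.121), Hoxa4 with E2 (E2 2 h replicate 2 or 3 or E2 24 h replicate 2 or 3, 0.0569 to 0.11) and Hoxd4 with HPTE (HPTE 2 h replicate 1 or 3 or HPTE 24 h replicate 1, 0.0665 to 0.188).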

How the results depend on the processing

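The counts of Hox genes called moved by over 1.5 times under some alternatives, and the cause was not tested. The share of all entries called under each alternative is not given, here or above. Some alternatives moved all probes, so these counts are not read as particular to Hox genes. Against vehicle, E2 at 2 h (11) gave 19 without scaling, 5 with spike-in scaling, 6 with slide as a block, 5 at a required 2-fold change and 0 without E2 2 h replicates 2 and 3, a choice made after seeing the data, and 6 to 14 when 1 array was left out. BPA at 2 h (23) gave 11 with spike-in scaling, 10 at 2-fold and 14 with only the groups compared (19 to 24 with 1 array left out), and HPTE at 2 h (21) gave 12 with spike-in scaling (20 to 22). E2 at 24 h (16) gave 8 with spike-in scaling and 10 at 2-fold (13 to 17). BPA at 24 h (0) gave 2 with array weights and 1 with only the groups compared (0 to 2, the 2 without BPA 2 h replicate 3). HPTE at 24 h (3) gave 5 with spike-in scaling, 0 with slide as a block, 8 with array weights, 0 at 2-fold and 10 with only the groups compared (1 to 11). From 2 to 24 h, E2 (12) gave 7 with spike-in scaling, 4 at 2-fold and 6 without E2 2 h replicates 2 and 3 (8 to 17). BPA (21) gave 11 without scaling, 5 with spike-in scaling, 12 with slide as a block, 8 at 2-fold and 11 with only the groups compared (15 to 22), and HPTE (15) gave 2 with spike-in scaling (15 to 18). BPA against E2 at 2 h (6) gave 1 without scaling, 0 with spike-in scaling, 2 with slide as a block, 10 with array weights, 0 at 2-fold, 3 without E2 2 h replicates 2 and 3 and 0 with only the groups compared (3 without BPA 2 h replicate 1 to 16 without replicate 3). HPTE against E2 at 2 h (3) gave 0 without scaling, 0 with spike-in scaling, 9 with array weights, 0 at 2-fold, 5 with the next probe and 6 with only the groups compared (3 to 10, with 6 without BPA 2 h replicate 1 and 10 without replicate 3). HPTE against BPA at 2 h (0) gave 0 to 1, the 1 without BPA 2 h replicate 2, and at 24 h (0) gave 4 with array weights (0 to 1, the 1 without BPA 2 h replicate 3). At 24 h BPA against E2 (13) gave 5 with spike-in scaling and 6 at 2-fold (9 to 18), and HPTE against E2 (9) gave 3 without scaling, 2 with spike-in scaling and 4 at 2-fold (4 without E2 24 h replicate 3 to 11). The count that differed between the 7 groups (23) stayed between 21 and 25 with 1 array left out. Hoxd4 reversed from 0.46 to -0.11 between 2 and 24 h of HPTE with spike-in scaling. Spike-in scaling moved the median of all probes by -0.57 to 0.25, no scaling by -0.26 to 0.37 and quantile normalization by -0.10 to 0.15 over the 15 comparisons.

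Samples with the same replicate number did not deviate together (r from -0.361 to 0.333 over 57 pairs, with 12 above 0.1), so the numbers were not read as pairs. Arrays on the same slide had a median r of 0.108 (25 pairs, 13 above 0.1), against -0.033 on other slides (146 pairs, 36 above 0.1). With the replicate block the counts were 9, 22 and 22 at 2 h and 15, 0 and 3 at 24 h against vehicle for E2, BPA and HPTE, 12, 20 and 16 from 2 to 24 h, 6, 3 and 0 between compounds at 2 h, 14, 9 and 0 at 24 h, and 23 between the 7 groups. Of 71 calls for the 12 genes given on every array, 33 kept their call and direction under every alternative run.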
